A study of Mus musculus with 2 samples.

Results

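Mir137, Mir138-1 and Mir138-2 are 3 microRNA (miRNA) genes of the mouse whose products are known to act in dendrites and at synapses. They were taken by gene name from the GENCODE M21 annotation, by a rule that uses no counts. Earlier results of these data were known when the 3 genes were chosen. They are 3 of the 2202 miRNA genes in the count files. The tissue was left cerebral cortex, taken at 2 months of age from males of B6CASTF1/J, hybrids of the first generation from a cross of inbred C57BL/6J and CAST/EiJ mice. No allele, agent or treatment is named in the labels, so there was 1 group and no comparison between conditions. The group held 2 libraries of RNA fragments under 30 nucleotides, library 1 from animal 3 and library 2 from animal 4. Both samples carry 1 donor identifier, so that they are separate animals rests on their numbers in the labels, and any spread between them may be technical.

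MiRNAs are cut from a hairpin, and 1 arm of it guides the silencing of messenger RNAs that pair with the seed, bases 2 to 8 of the mature miRNA. miR-137 is enriched in brain, where it is known to act on the maturation of neurons and on the release of synaptic vesicles, and its human locus is associated with schizophrenia. miR-138 is known from rat hippocampal neurons, where it sits near synapses and limits the size of dendritic spines through the depalmitoylating enzyme Lypla1.

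The mature sequences decide which reads a count can hold, and RefSeq (GRCm38.p6) lists 6 arms for the 3 genes, matched by symbol for all of them. They are printed 5′ to 3′ with the seed in capitals.
miR-137-5p: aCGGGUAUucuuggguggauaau
miR-137-3p: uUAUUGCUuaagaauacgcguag
miR-138-5p: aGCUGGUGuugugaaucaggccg
miR-138-1-3p: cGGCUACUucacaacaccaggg
miR-138-2-3p: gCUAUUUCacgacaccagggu
The miR-138-5p arm is the same at Mir138-1 and Mir138-2, while each copy has a 3p arm of its own. The 3p arms of the copies overlap over 20 bases with 2 differences, C7U and A13G, counted from the 5′ end of miR-138-1-3p with its base first. The seeds of both 3p arms differ, since miR-138-2-3p begins 2 bases further in and the difference C7U lies within both seeds. No other mouse mature miRNA in the RefSeq table has the seed of any of these arms.

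The hairpins show where the Mir138 copies can be told apart. In the Mir137 hairpin the capitals mark both mature arms, and in the Mir138 hairpins they mark the longest stretch that both copies hold.
Mir137: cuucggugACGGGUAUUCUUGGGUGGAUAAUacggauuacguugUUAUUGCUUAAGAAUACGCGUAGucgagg
Mir138-1: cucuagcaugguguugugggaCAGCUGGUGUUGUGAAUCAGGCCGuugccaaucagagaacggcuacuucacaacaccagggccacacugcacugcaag
Mir138-2: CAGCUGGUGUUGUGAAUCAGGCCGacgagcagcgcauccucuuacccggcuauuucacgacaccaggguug
The shared stretch of 24 bases covers the whole miR-138-5p arm and 1 base before it. Read from the start of miR-138-5p, a fragment had to be 24 nucleotides long before it occurred in 1 annotated hairpin, 1 base beyond the 23 bases of the arm. From the start of either 3p arm, and of both miR-137 arms, 15 nucleotides, the shortest length searched, were enough. Of all stretches of 22 bases, 3 of 78 in Mir138-1 and 3 of 50 in Mir138-2 occurred in the other copy, against 0 of 52 in Mir137. These searches covered annotated hairpins only, not the genome.

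**Figure D1:**
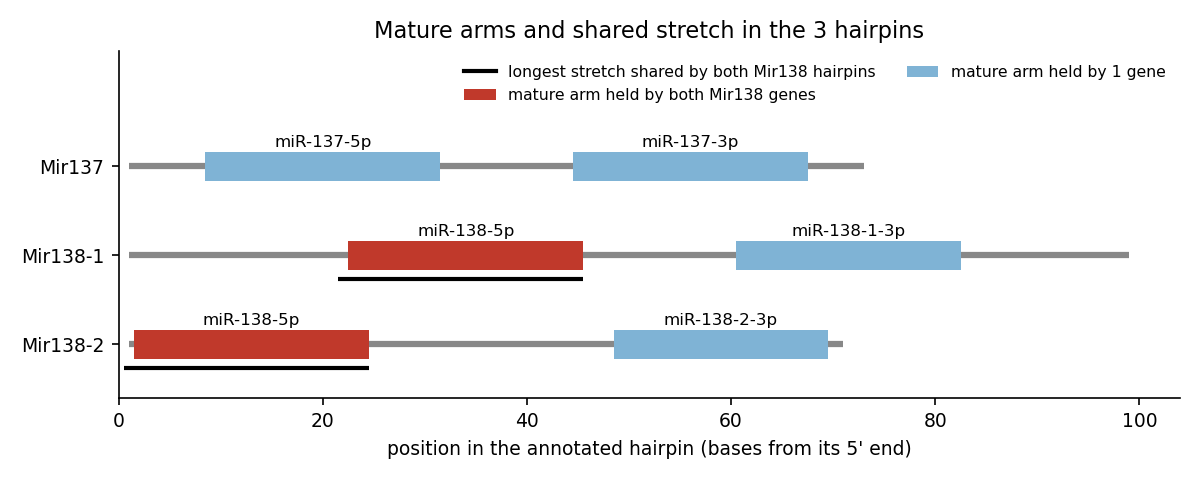
Position of the mature arms in the annotated hairpins of Mir137, Mir138-1 and Mir138-2, in bases from the 5′ end of each hairpin. Red boxes are the miR-138-5p arm that both Mir138 genes hold, blue boxes are arms held by 1 gene, and the black line under each Mir138 hairpin is the shared stretch of 24 bases.

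The 3 genes lie on different chromosomes, all on the plus strand and all over an exon of a longer transcript that is not protein-coding (mm10, GENCODE M21). Mir137 (ENSMUSG00000065569.2; chromosome 3, 118433857 to 118433929) overlaps an exon in 3 of the 6 transcripts of Gm26871, a processed transcript. Mir138-1 (ENSMUSG00000065414.1; chromosome 9, 122682876 to 122682974) overlaps an exon in 1 of the 2 transcripts of Gm47135, annotated as a transcribed pseudogene. Mir138-2 (ENSMUSG00000065512.3; chromosome 8, 94324311 to 94324381) overlaps an exon of the 1 transcript of the long non-coding RNA C78859, and its nearest protein-coding gene is Slc12a3, which encodes a sodium-chloride cotransporter, at 4820 bases. The nearest miRNA gene had at most 1 read for each of the 3. For Mir137 it was Gm24155, 792 bases downstream on the same strand, with 1 read in library 1 and 0 in library 2. For Mir138-1 it was Mir8106 at 408848 bases and for Mir138-2 Mir7072 at 180665 bases, both with 0 reads in both libraries.

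The libraries held 11372894 and 12980686 reads, of which 3827158 in library 1 and 4553291 in library 2 fell on the sense strand of a miRNA gene. Levels are given as counts per 1000000 of these sense-strand reads (CPM). No use of molecular identifiers is stated in the sources used here, so 1 molecule may be counted more than once. Intervals cover counting error only and take each read as independent. Multi-mapped reads, those with several places in the genome, were 41.7% in library 1 and 41.1% in library 2, and the layout of the files gives them to no gene. A read of miR-138-5p at its annotated length matches both copies, so the Mir138 counts cannot be read as the whole amount of miR-138, and how many such reads there were was not analysed here. Of the marker lists for cells of the cortex, 9 of 12 genes for neurons, 3 of 3 for oligodendrocytes, 4 of 4 for the miR-29 family of astrocytes and 3 of 3 for vessels had 10 or more reads in both libraries (called detected here). The Mir124a genes, markers of neurons that also share their mature arm, averaged 3.28, 0.899 and 0.894 CPM, and 5 of 6 muscle markers had no read. The remaining muscle marker, Mir206, averaged 29.5 CPM and the liver marker, Mir122, 75.5 CPM, and both were detected.

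By placed reads, Mir137 was among the higher miRNA genes in these libraries and was nearly level between them. It had 21113 reads in library 1 and 23570 reads in library 2, or 5517 and 5176 CPM. Its mean was 5347 ± 241 CPM (SD, n = 2), a coefficient of variation of 4.50%. It took rank 36 of the 2202 genes in library 1 and rank 37 in library 2. Its share of the sense-strand miRNA reads was 0.552% in library 1 (95% exact interval 0.544 to 0.559%). In library 2 it was 0.518% (0.511 to 0.524%), outside that interval. Multi-mapped reads count for no gene, so ranks and shares here and below hold among placed reads only.

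Mir138-1 was the higher of the Mir138 copies in both libraries and varied more than Mir137. It had 16970 reads in library 1 and 27531 reads in library 2, or 4434 and 6046 CPM. Its mean was 5240 ± 1140 CPM (SD, n = 2), a coefficient of variation of 21.8%. It held rank 41 in library 1 and rank 34 in library 2. Its share was 0.443% of library 1 (95% exact interval 0.437 to 0.450%) and 0.605% of library 2 (0.598 to 0.612%).

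Mir138-2 followed the same course at a lower level. It had 9114 reads in library 1 and 14259 reads in library 2, or 2381 and 3132 CPM. Its mean was 2756 ± 530 CPM (SD, n = 2), a coefficient of variation of 19.2%, and its ranks were 63 and 53. Its share was 0.238% in the first library (95% exact interval 0.233 to 0.243%). It was 0.313% in library 2 (0.308 to 0.318%). The counts placed at both Mir138 copies summed to 6816 CPM in library 1 and 9178 CPM in library 2, which was 1.24 and 1.77 times the CPM of Mir137. In all, library 1 had 1.23% and library 2 had 1.44% of its sense-strand miRNA reads at the 3 genes.

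The annotated hairpins differ in length (73 bases for Mir137, 99 for Mir138-1 and 71 for Mir138-2), which bears on the order of the levels. Per 100 bases of hairpin, Mir137 stood at 7557 CPM in library 1 and 7091 CPM in library 2. On this scale Mir138-1 stood at 4479 and 6107 CPM and Mir138-2 at 3354 and 4411 CPM. The order Mir137, Mir138-1, Mir138-2 held within both libraries on this scale. Over the libraries, Mir137 averaged 7324 ± 329, Mir138-1 5293 ± 1152 and Mir138-2 3882 ± 747 CPM per 100 bases (SD, n = 2), and the lowest value of each gene lay above the highest value of the next, for Mir138-1 over Mir138-2 by a small margin (4479 against 4411 CPM per 100 bases). Per gene, the placed reads of Mir137 and Mir138-1 did not differ beyond their spread, and their order turned between the libraries. Reads of the arm that the Mir138 copies share, at its annotated length, match both copies and count for neither. Mir137 shares no arm, so its order against either copy, on both scales, holds for placed reads only. A sequenced fragment covers 1 arm, whatever the length of the hairpin, so both scales are given. Among all 2202 genes the ranks of the mean were 35, 37 and 57 per gene, and 37, 42 and 49 per 100 bases.

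**Figure D2:**
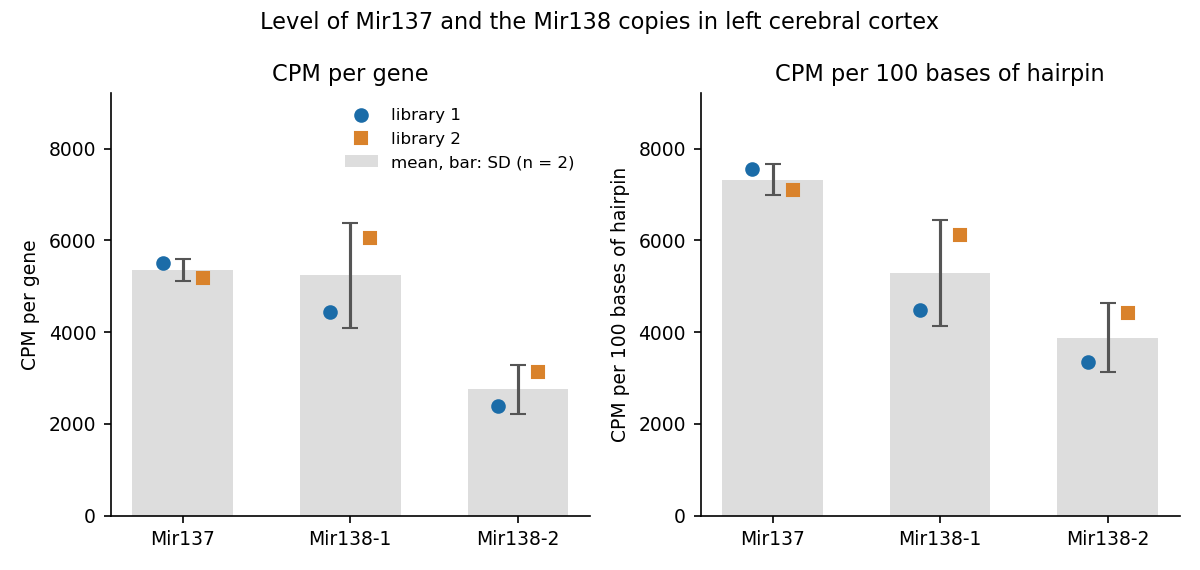
Level of Mir137, Mir138-1 and Mir138-2 as CPM per gene (left) and CPM per 100 bases of annotated hairpin (right). Circles are library 1, squares library 2, grey bars the mean and error bars the SD (n = 2). Mir137 was the steadiest of the 3, and both Mir138 copies were higher in library 2 on both scales.

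All reads at the 3 genes lay on the annotated strand. The opposite strand had 0 entries at each gene in both libraries, which allows a share of at most 0.0142% in library 1 and 0.0127% in library 2 for Mir137. For Mir138-1 these limits were 0.0177 and 0.0109%, and for Mir138-2 0.0329 and 0.0210%. The column that ignores strand gave the same counts, and none of the 3 genes lost a read there.

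The libraries were compared gene by gene by an exact binomial test (two-sided, on both library totals), adjusted by Benjamini-Hochberg over all 508 genes with 10 or more reads in total. Mir137 was 1.07-fold higher in library 1 (log2 of the ratio, library 1 over library 2, 0.09, 0.06 to 0.12 as exact 95% interval; adjusted p = 7.65e-11). Mir138-1 was lower in library 1, with a log2 ratio of -0.45 (-0.48 to -0.42; adjusted p = 6.63e-225), which is 1.36-fold higher in library 2. Mir138-2 had a log2 ratio of -0.40 (-0.43 to -0.36; adjusted p = 3.25e-93), or 1.32-fold higher in library 2. All 3 genes passed this test, against 48.4% of the 508 genes tested. Mir137 was 1 of the 25.2% higher in library 1 and both Mir138 copies were among the 23.2% higher in library 2. The share called rises with depth: of the 57 genes with at least the reads of Mir138-2, 96.5% passed and 63.2% passed as higher in library 2, so 3 calls among 3 genes stand near the share for genes of this depth.

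The test allows for counting error alone and compares these libraries, not conditions. With the spread between the libraries allowed for in edgeR's exact test with 1 common dispersion for all genes (a coefficient of variation of 33.3%), none of the 3 genes passed. That dispersion was estimated from the same 2 libraries, and no gene with a fold under 2.73 reached even an unadjusted p of 0.05 in edgeR's exact test, so differences of the size seen here could not pass it. The adjusted p of edgeR's exact test was 1 for each, and the unadjusted p was 0.875 for Mir137, 0.532 for Mir138-1 and 0.583 for Mir138-2. Of all 508 genes, 0.787% passed edgeR's exact test and 4.92% had an unadjusted p under 0.05. Of the 406 detected genes, 13.5% differed less between the libraries than Mir137, 60.3% less than Mir138-1 and 55.2% less than Mir138-2, with a median difference of 1.28-fold. The neuron marker list made up 6.73% of library 1's sense-strand reads and 4.01% of library 2's. Its largest parts were Mir132 (48515 CPM in library 1 and 30152 CPM in library 2) and Mir128-1 (13881 and 6392 CPM). Of the list's 10 genes tested by the binomial test 4 stood higher in library 1, with 1 higher in library 2, against 25.2% and 23.2% of all genes tested. Other lists shifted as well. The astrocyte list made up 1.43% of library 1 and 0.986% of library 2, the oligodendrocyte list 0.498 and 0.347%, the microglia and leukocyte list 0.216 and 0.175%, and the list for vessels 1.44 and 1.86%. The list of 3 red blood cell markers, all of them detected, held 0.0134% in library 1 and 0.155% in library 2. Most of its part in library 2 was Mir451a, at 58.3 CPM in library 1 and 1419 CPM in library 2. By the binomial test 1 red blood cell marker stood higher in library 1 and 2 stood higher in library 2, as for the vessel list. Higher in library 1 were 3 of 4 tested for astrocytes, 2 of 3 for oligodendrocytes and 3 of 5 for microglia and leukocytes. None from those 3 lists stood higher in library 2. The shares over all genes tested are those given above and are not matched for depth. The part of any of these lists in the differences of the 3 genes was not tested.

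**Figure D3:**
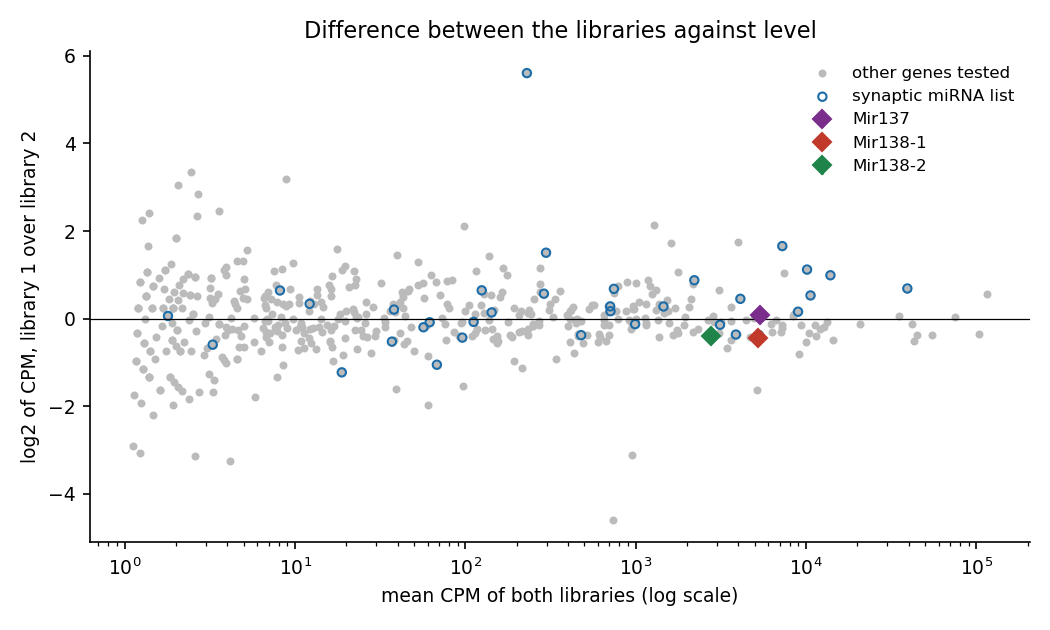
Difference between the libraries (log2 of CPM in library 1 over library 2) against the mean CPM on a log scale, for the genes tested that had a read in both libraries. Diamonds are Mir137, Mir138-1 and Mir138-2 with 95% exact intervals, smaller than the symbols, and open circles are the list of synaptic miRNA genes. Mir137 lies just above 0 and both Mir138 copies lie together below it.

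The split of placed reads between the Mir138 copies was nearly the same in both libraries. Mir138-1 held 65.1% of the 26084 reads of both copies in library 1 (95% exact interval 64.5 to 65.6%) and 65.9% of 41790 reads in library 2 (65.4 to 66.3%). The mean was 65.5% ± 0.580 (SD, n = 2), so that Mir138-1 had 1.86 reads for each read of Mir138-2 in library 1 and 1.93 in library 2. The difference in the share was -0.82 percentage points (two-sided Fisher's exact test, p = 0.0290, also 0.0290 after adjustment over the 3 pairs of genes compared). By comparison, Mir137 and Mir138-1 shifted against each other. For each read of Mir138-1, Mir137 had 1.24 reads in library 1 (1.22 to 1.27 as 95% exact interval), against 0.856 in library 2 (0.841 to 0.871), a change of 1.45-fold (Fisher's exact test, adjusted p = 1.78e-166). Per base of hairpin these ratios were 1.69 and 1.16, so Mir137 was then the higher in both libraries. Mir137 over Mir138-2 was 2.32 and 1.65 in reads (adjusted p = 1.78e-94 by Fisher's exact test). These tests also cover counting error only. The ratios of Mir137 to either Mir138 copy hold for placed reads only. Reads of the arm that the copies share are missing from them at its annotated length, while Mir137 shares no arm.

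Among genes that share a mature arm with another annotated hairpin, the Mir138 copies stood high. The RefSeq table gave mature arms for 955 of the 2202 genes, matched by position and strand, and 108 of these shared an arm. Of the 108, Mir138-1 took rank 2 and Mir138-2 rank 4 by mean CPM per gene, with Mir128-1 (10137 CPM) at rank 1, Mirlet7f-2 (3186 CPM) at rank 3 and Mir128-2 (2209 CPM) at rank 5. All 5 have 1 shared arm and an arm of their own. Of the 59 genes with both a shared arm and an arm of their own, 39 were detected, and the median was 19.5 CPM. Of the 49 genes whose listed arms were all shared, 6 were detected and the median was 0 CPM. Of the 847 with no listed arm shared, 297 were detected with a median of 0.742 CPM. Some genes, such as Mir219a-2, Mir129-1 and Mirlet7a-2, have only 1 arm listed, so the classes hold for listed arms only. These are counts of placed reads, and the part that reads mapped to several places would add was not tested.

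Among the 955 genes matched by position, 21 pairs shared a listed mature arm and had at least 10 reads in each library. Copies outside these 955 genes were not paired. The log2 library ratios of both copies differed by a median of 0.44 and at most by 4.97, in the pair of Mir26a-2 and Mir26a-1. The Mir138 copies differed by 0.05, and 1 of the 21 pairs (Mir92-1 and Mir92-2, at 0.04) differed less. The mean CPM of the higher copy over that of the lower ranged from 1.06-fold to 316-fold over these pairs, with a median of 3.87-fold. The Mir138 pair stood at 1.90-fold with 4 pairs below it. The pairs differ widely in depth, and in none of the others did the lower copy reach the mean CPM of Mir138-2, so these values are a description with no test.

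**Figure D4:**
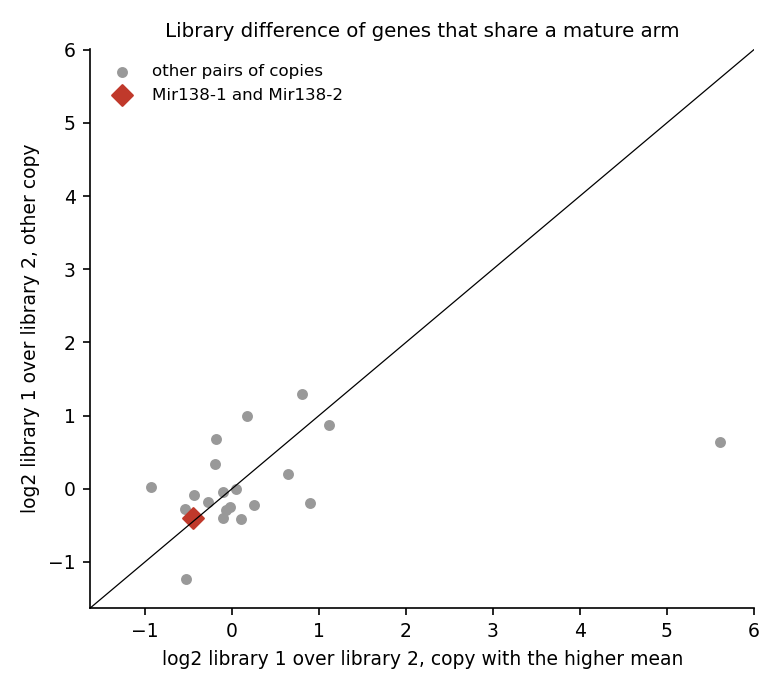
Log2 library ratio (library 1 over library 2) of the copy with the higher mean CPM against that of the other copy, for 21 pairs of genes that share a mature arm. The line marks equal ratios, and the diamond is the pair of Mir138-1 and Mir138-2, which lies at -0.45 and -0.40.

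The genes most like each of the 3 were sought by distance in log2(CPM + 1) over the 2 libraries, among the detected genes. Nearest to Mir137 were Mir92b (5202 CPM in library 1 and 4990 CPM in library 2), Mir30a (5009 and 4940 CPM) and Mir379 (4596 and 5984 CPM), at distances of 0.10, 0.15 and 0.34. Nearest to Mir138-1 was Mir379, an imprinted miRNA of the Dlk1-Dio3 region that is known to lie in a cluster with Mir134, at a distance of 0.05. Mir361 (4022 and 5366 CPM) and Mir30a followed at 0.22 and 0.34. Nearest to Mir138-2 were Mir100 (2727 and 3423 CPM), Mir598 (2788 and 2968 CPM) and Mir30e (2618 and 2687 CPM), at 0.23, 0.24 and 0.26. With 2 libraries this likeness is one of level and of 1 difference. On the scale per 100 bases Mir379 (66 bases) averaged 8016 CPM, above both Mir137 and Mir138-1.

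Beside other miRNAs with known roles in dendrites and synapses, the 3 genes stood in the upper part. The list held 38 names, of which 36 matched an annotated gene by symbol and 33 were detected. The other 2, Mir92a-1 and Mir92a-2, are listed as Mir92-1 and Mir92-2 in the annotation and were left out. The median of the 36 genes was 293 CPM, against 0 CPM over all 2202 genes, of which 1444 had no read in either library. Over the 406 detected genes the median was 95.6 CPM. Per gene, 6 of the 36 had a higher mean than Mir137, 7 than Mir138-1 and 10 than Mir138-2, and per 100 bases of hairpin 7, 7 and 9.

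The top of the list was Mir132, which neuronal activity induces, at 48515 CPM in library 1 and 30152 CPM in library 2, or 39333 ± 12985 CPM (SD, n = 2). Mir125a, a member of the family of the lin-4 miRNA of worms, followed at 13905 ± 6485 CPM and Mir29a, which is strong in astrocytes, at 10625 ± 2718 CPM (SD, n = 2 each). The lowest was Mir124a-3, with 6 reads in library 1 and 1 read in library 2. Mir134, known from rat neurons to limit dendritic spines through Limk1, averaged 478 ± 88.4 CPM (SD, n = 2) and was named outside the rule after its values were seen.

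By the exact binomial test 16 of the 34 list genes tested stood higher in library 1 and 9 others higher in library 2, against 25.2% and 23.2% of all genes tested. The share called rises with depth, and this comparison is not matched for depth. Mir137 went with the 16 and both Mir138 copies with the 9. The list made up 14.0% of library 1's sense-strand reads and 9.12% of library 2's, and Mir132 supplied the largest part of it. Of the 36 genes, 17 have a hairpin without any run of 20 bases found in another hairpin, as in Mir137, and their median was 3126 CPM. The other 19, like the Mir138 copies, do hold such a run and had a median of 56.7 CPM. Both Mir138 copies had a higher mean CPM per gene than 18 of these 19 genes, all but Mir128-1.

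**Figure D5:**
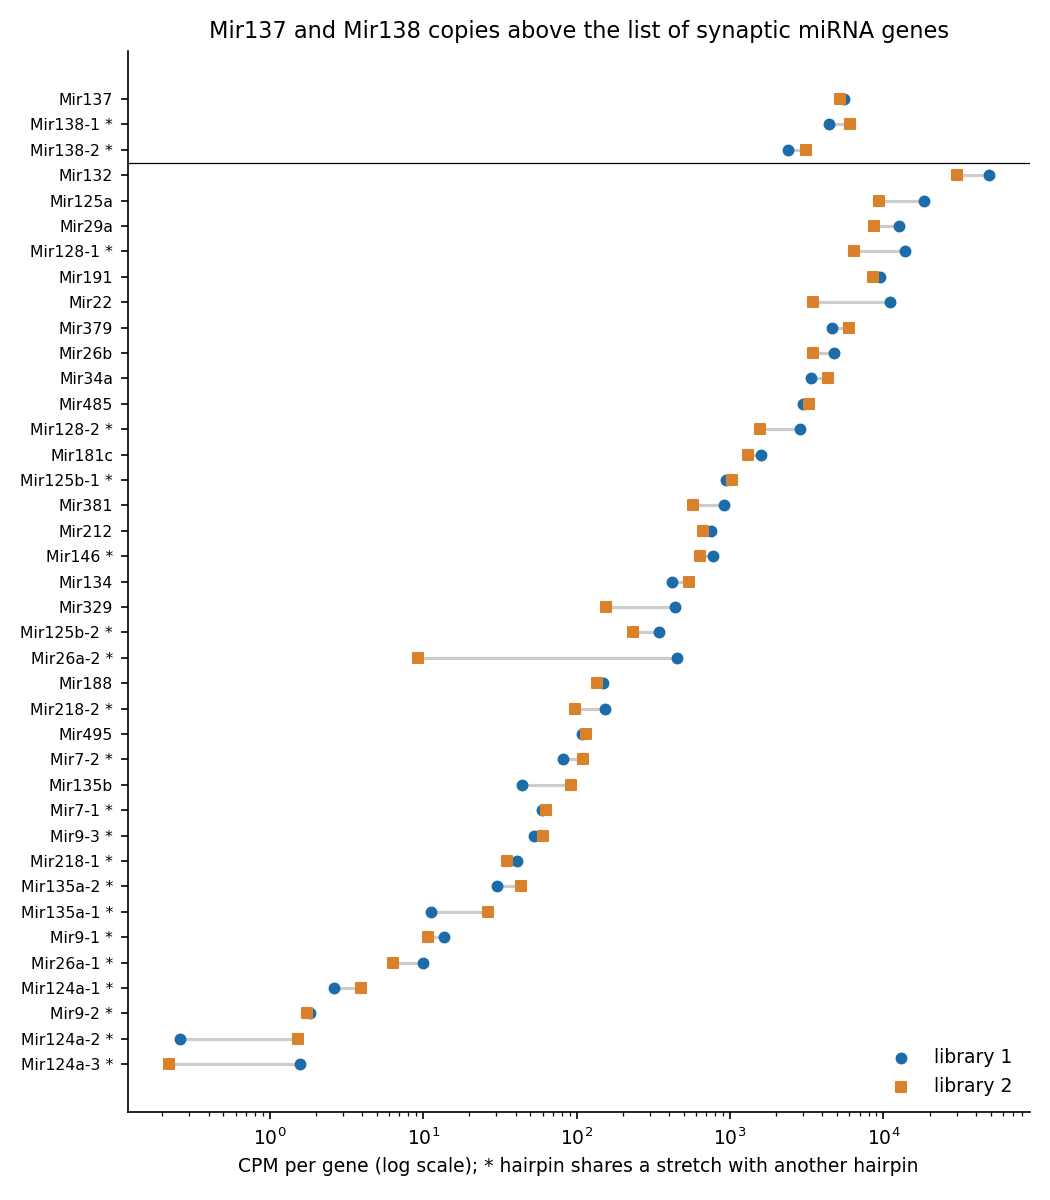
CPM per gene on a log scale in library 1 (circles) and library 2 (squares) for Mir137, Mir138-1 and Mir138-2, above the line, and for the 36 genes of the synaptic miRNA list, ordered by mean CPM. Asterisks mark genes whose hairpin has a run of 20 or more bases in common with another, and most of the low genes carry one.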

How the data were processed

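The authors deposited 1 table per library of whole-number read counts per miRNA gene, not normalized, for mm10 and GENCODE M21 per the labels and deposited file descriptions. Which aligner, settings and trimming were used is not given in the sources used here. The 3 count columns and 4 tally rows have the layout of STAR's gene counts, and the tallies (unmapped 19.6 and 18.9%, several places 41.7 and 41.1%, outside genes 5.03 and 4.94%, ambiguous 0 and 1 read) stayed out of library sizes. mm10 is the C57BL/6J sequence, so reads that differ in CAST/EiJ may have been lost.

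The sense column was scaled to CPM, with a pseudocount of 1 only for distances. Exact binomial tests (threshold 0.05), Fisher's exact tests and exact 95% intervals came from scipy 1.17.1 in Python 3.11.15. edgeR 4.0.16 and DESeq2 1.42.0 size factors were run in R 4.3.3. All 2202 identifiers matched GENCODE M21. A count of 0 was limited at 3 counts. The binomial test was tried on simulated data with a known set of changed genes and counting error only. That trial does not cover spread between libraries.

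The 3 genes, the lists and the tests were chosen with earlier results of these data known. Genes named were the 3 members, the 3 genes nearest in level to each, the 3 highest and the lowest with a read of the synaptic list, neighbours, and genes sharing a seed. Other names, such as those among the pairs of copies, were chosen after their values were seen.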

Additional observations from a re-analysis of the deposited data

Results flagged for a closer look

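Reads mapped to several places lay outside the counts used here and made up 41.7% of all reads in library 1 and 41.1% in library 2. The files do not say which genes they match, so the number belonging to miR-138-5p, which both Mir138 copies hold, was not analysed here.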

How the results depend on the processing

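The log2 library ratios kept their sign and passed the binomial test under the column that ignores strand, the 4 other scalings and both other count minimums. For Mir137 the ratio was 0.05 with median-of-ratios factors and 0.03 with all reads as denominator (exact binomial test, adjusted p = 0.0404), both under the interval of the main value. With edgeR's exact test they were 0.11 for Mir137, -0.43 for Mir138-1 and -0.38 for Mir138-2 and no longer passed (adjusted p = 1 each), and 4 genes in place of 246 differed in all. Counts in the column that ignores strand were the same, but its smaller total gave 5768 CPM for Mir137, 5654 for Mir138-1 and 2974 for Mir138-2. With all reads as denominator the levels were 1836 (Mir137), 1807 (Mir138-1) and 949.9 (Mir138-2) per 1000000, and with uniquely mapped reads 4669, 4579 and 2409 in the same order. Per 100 bases of hairpin Mir137 stood at 7324 and Mir138-2 at 3882 CPM. Leaving out each library in turn gave 5176 to 5517 CPM for Mir137, 4434 to 6046 CPM for Mir138-1, 2381 to 3132 CPM for Mir138-2, 65.1 to 65.9% for Mir138-1's share of both copies, and 33 detected list genes either way. Mir137 over Mir138-1 averaged 1.05 in placed reads and 1.42 per base. The ratio of reads fell below 1, to 0.856, without replicate 1, against 1.24 without replicate 2. The cause of these shifts was not tested, except that the list genes with a hairpin of their own number 17 by construction. No paired analysis was possible because the series has 1 group. Counting error is small at these depths, and the 2 libraries limit what can be said.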
